A study of Caenorhabditis elegans with 6 samples.

Results

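C-type lectin genes of Caenorhabditis elegans, a nematode worm, were followed in wild type N2 and in worms carrying the tm1978 allele of hlh-30. Members were the genes whose symbol begins with clec- in the platform annotation and that had at least 1 Affymetrix probe set annotated with no other gene, the probe set with the highest mean over the 6 arrays standing for the gene. This gave 220 genes, read by 236 probe sets, among the 17118 genes of the array. A gene counted as expressed when 3 or more arrays read log2 4 or higher, and 51 of the 220 did. For 18 of the 51 the probe set name has an _s or _x suffix, for probes that can match more than 1 transcript. Signal from related genes cannot be told apart there.

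A C-type lectin-like domain is a compact protein fold first known from animal lectins that bind sugars with the help of calcium, and many proteins with the fold bind no sugar. In C. elegans the family is large, many members have a signal for secretion, and many are made in the intestine, where numbers of them change on infection with bacteria or fungi. HLH-30 is the worm counterpart of mammalian TFEB, a transcription factor of lysosomal, autophagy and host defence genes, and the comparison is between worms with and without the mutation.

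The N2 group held 3 arrays and the hlh-30(tm1978) group held 3, each made from a separate biological replicate of whole worms kept at 20 °C on plates. Within a replicate, RNA of embryos and of first (L1) and second (L2) stage larvae was pooled, so a value averages over stages and tissues, and fewer cells of a type cannot be told apart from less RNA per cell. Pathogen treatment is not among the labels, and neither the extent of the tm1978 lesion nor any outcrossing is given in the sources used here, so other differences between the strains cannot be told apart from the allele. The deposited values are log2 expression, with 31.7% to 32.4% of the probe sets of an array at a shared floor of 2.04.

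The hlh-30 transcript was read by 3 probe sets, on each of which every mutant array lay below every N2 array. On the brightest the N2 arrays averaged 12.16 ± 0.16 (SD, n = 3) and the mutant arrays 10.28 ± 0.54 (SD, n = 3), a log2 difference of −1.88 (SE 0.29; limma adjusted p 0.128). Arrays numbered 3 stood apart from the others of their genotype. Over 17 early embryo and germline markers expressed of 23, the mean log2 value was 7.60, 7.28 and 6.85 on N2 arrays 1, 2 and 3 and 6.75, 6.83 and 8.42 on mutant arrays 1, 2 and 3. All 16 intestine markers, 16 body wall muscle markers and 13 pharynx markers were expressed. Of 12 sperm and yolk markers only 2 were expressed.

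Most of the family lay under the expression threshold in both genotypes. The share expressed was 23.2% of the C-type lectin genes, beside 53.2% of all genes on the array. Of the 169 genes not expressed, 167 were under log2 4 on all 6 arrays, and 141 stood at the floor on all 6. The remaining 2, named here after their values were seen, passed log2 4 on a single array, which was N2 array 3 both times. clec-76 read 2.97, 2.39 and 6.46 on the N2 arrays and stood at the floor on the mutant arrays, and clec-143 read 5.50 on N2 array 3 and at most 2.28 elsewhere. All 220 members were matched to RefSeq by Entrez number, where 18 are annotated as pseudogenes, and none of the 51 expressed genes is one of them.

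A signal depends on the sequence of the probes as well as on the amount of RNA, so the bands of signal that follow do not rank the genes by transcript amount. With a mean of at least 12 there were 6 genes, clec-266, clec-63, clec-1, clec-87, clec-196 and clec-265. Between 10 and 12 lay 10 genes, clec-180, clec-88, clec-230, clec-50, clec-174, clec-72, clec-66, clec-67, clec-83 and clec-65. Between 8 and 10 lay 15 genes, clec-17, clec-186, clec-91, clec-48, clec-85, clec-52, clec-41, clec-4, clec-150, clec-5, clec-56, clec-173, clec-51, clec-78 and clec-10. Between 6 and 8 lay 9 genes, clec-49, clec-147, clec-62, clec-221, clec-42, clec-187, clec-57, clec-47 and clec-264. Under 6 lay the last 11, clec-160, clec-135, clec-71, clec-178, clec-60, clec-74, clec-53, clec-140, clec-43, clec-64 and clec-86. The median of these means was 9.08, against 9.20 over all 9113 genes expressed.

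**Figure D1:**
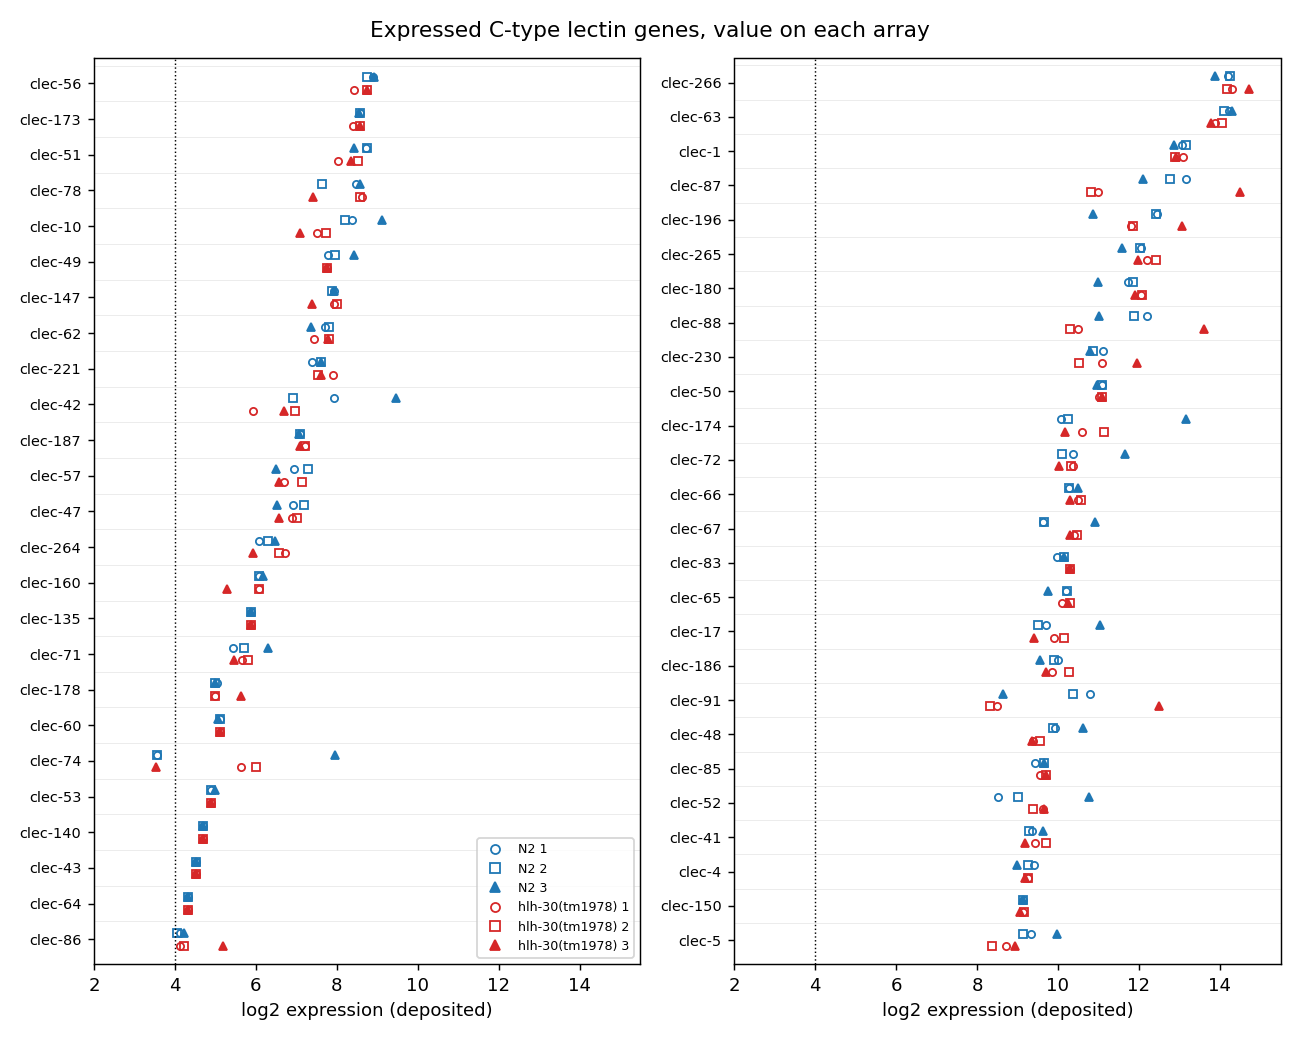
Deposited log2 expression of the 51 expressed C-type lectin genes on each array, 1 gene per line, with N2 arrays in blue above and hlh-30(tm1978) arrays in red below and the arrays numbered 3 as filled triangles; the dotted line marks log2 4. For most genes the colours overlap, and the widest spreads, as for clec-91, clec-87, clec-174 and clec-74, come from a filled triangle.

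At the threshold itself, ordered by the third highest array, the nearest genes inside were clec-86 at 4.21, clec-64 at 4.33 and clec-43 at 4.52. The nearest outside were clec-133 at 3.29, clec-263 at 3.11 and clec-208 at 2.80. All but 1 of the 51 passed on all 6 arrays. The exception, named for that reason, was clec-74, which read 3.56, 3.56 and 7.97 on the N2 arrays and 5.63, 5.9963 and 3.52 on the mutant arrays, so that 1 N2 array and 2 mutant arrays carried it over.

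Several of the deposited values are exactly identical between arrays. For clec-43, clec-64, clec-135 and clec-140 all 6 values are identical, so that they show no variation at all, either within a genotype or between them. These 4 make up 7.84% of the expressed C-type lectin genes, beside 1.84% of all genes expressed. Only 26 of the 51 had 6 different values. That was 51% of the family, beside 59% of all genes expressed.

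No C-type lectin gene was called between the genotypes. In limma, fitted over all 12060 probe sets that passed the filter with Benjamini-Hochberg adjustment, the lowest adjusted p in the family was 0.357, and 0 of 51 genes were under 0.05, where 0.143% of all genes were. At an unadjusted p under 0.05 there were 5, or 9.8%, beside 8.59% of all genes, with 4 lower and 1 higher in the mutant. Of the 51, 23 were above 0, 24 below and 4 exactly at 0, with a median log2 difference of 0 beside −0.010 over all genes. The quartiles of the differences were −0.23 and 0.12 in the family and −0.16 and 0.13 over all genes.

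The mutant arrays lay wholly below the N2 arrays for 5 genes, 9.80% of the family beside 9.87% of all genes. They lay wholly above for 2, or 3.92% beside 3.76%. These shares are close to those of the array as a whole. Among these separated genes, clec-5, clec-10, clec-49 and clec-83 are read by sets with an _s suffix, and clec-48, clec-63 and clec-180 by plainly named sets. For a single gene in this design an exact permutation test has a smallest p of 0.1, so separation alone does not pass a test.

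Markers of the intestine, where many C-type lectins are made, lay mostly lower in the mutant. Of 16 such markers 15 were below 0, 6 had all mutant arrays lower, none was called and the median log2 difference was −0.19. Of 16 body wall muscle markers 13 were below 0, 8 had all mutant arrays lower, 1 was called and the median was −0.41. Over all genes 52.1% were below 0, 9.87% had all mutant arrays lower and 3.76% all higher. Of 12 hypodermis markers 8 were above 0, 3 had all mutant arrays higher and 1 all lower, and the median was 0.21. Of 13 pharynx markers 9 were below 0, none had arrays apart and the median was −0.074. The part of these tissues in the lectin values was not tested.

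**Figure D2:**
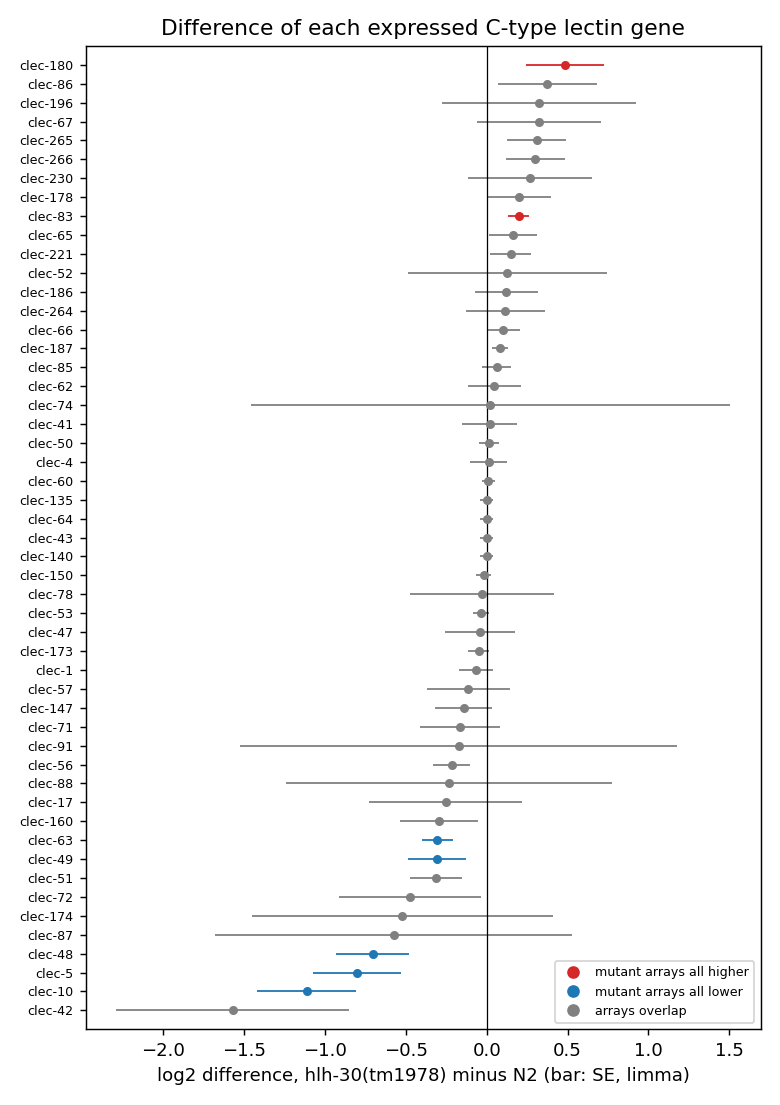
Log2 difference, hlh-30(tm1978) minus N2, of the 51 expressed C-type lectin genes in order of size, with bars of 1 standard error from limma; blue and red mark genes whose mutant arrays are all lower or all higher, and grey marks overlap. The 5 blue and 2 red genes run from −1.11 to 0.48, and the lowest point of all, clec-42 at −1.57, is grey with a standard error of 0.72.

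The largest difference among separated genes was that of clec-10 (Entrez gene 173430). Its N2 arrays read 8.37, 8.21 and 9.11 and its mutant arrays 7.52, 7.74 and 7.08. The groups do not overlap, the closest pair being N2 array 2 and mutant array 2, and both arrays numbered 3 lie at the outer ends. The log2 difference was −1.11 (SE 0.30; limma adjusted p 0.357), and −0.66 without the arrays numbered 3. With array quality weights, which gave those arrays the least weight, clec-10 was the only member called, at −0.79 (limma adjusted p 0.0461), in a fit that called 6.46% of all genes.

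clec-5 (Entrez gene 175652) read 9.33, 9.13 and 9.97 on the N2 arrays and 8.71, 8.38 and 8.95 on the mutant arrays. The gap between the groups was small beside their spread, and the log2 difference was −0.80 (SE 0.27; limma adjusted p 0.473). clec-48 (Entrez gene 180188) read 9.92, 9.87 and 10.62 in N2 and 9.39, 9.56 and 9.35 in the mutant. N2 array 3 was again the highest, and the log2 difference was −0.70 (SE 0.23; limma adjusted p 0.453), −0.46 without N2 array 3 and −0.42 without both arrays numbered 3.

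clec-49, which C. elegans needs for defence against the bacterium Serratia marcescens, read 7.78, 7.95 and 8.44 in N2 and 7.75 on all 3 mutant arrays. The mutant values are identical, the nearest N2 array lies just above them, and the log2 difference of −0.31 (SE 0.18; limma adjusted p 0.692) was −0.12 without the arrays numbered 3. A further probe set, annotated with both clec-48 and clec-49, read 11.29, 11.24 and 11.75 in N2 and 10.93, 10.72 and 10.92 in the mutant, a log2 difference of −0.57 (SE 0.16; limma adjusted p 0.385). It too separated the groups, and like both genes it was highest on N2 array 3.

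clec-63 (Entrez gene 174927) had one of the brightest signals of the family and a narrow spread. Its N2 arrays read 14.22, 14.11 and 14.30 and its mutant arrays 13.88, 14.05 and 13.79, with a gap of less than 0.1 between N2 array 2 and mutant array 2. The log2 difference was −0.31 (SE 0.094; limma adjusted p 0.429).

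The genes with all mutant arrays higher were clec-180 and clec-83. clec-180 (Entrez gene 177534) read 11.72, 11.85 and 10.9985 in N2 and 12.05, 12.07 and 11.90 in the mutant. N2 array 3 was the lowest of the 6. The log2 difference was 0.48 (SE 0.24; limma adjusted p 0.645), and 0.28 without the arrays numbered 3. clec-83 (Entrez gene 177065) read 9.98, 10.16 and 10.14 in N2 and an identical 10.29 on each mutant array, a difference of 0.20 (SE 0.063; limma adjusted p 0.453).

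Genes of the family linked to infection were listed from general knowledge, 21 in all, and 16 of them were expressed. None was called, 10 were above 0 and 6 below, and the median log2 difference was 0.013. The expressed ones were clec-4, clec-17, clec-41, clec-42, clec-49, clec-50, clec-60, clec-63, clec-65, clec-66, clec-67, clec-71, clec-72, clec-83, clec-85 and clec-86. The 5 not expressed were clec-7, clec-39, clec-61, clec-70 and clec-82, none of which read above 2.53 on any array. clec-39 is, with clec-49, the other lectin gene needed against Serratia marcescens, and stood at the floor on every array.

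clec-60, an intestinal gene strongly induced by Staphylococcus aureus, read between 5.07 and 5.10 on all arrays, a value identical on 4 of them. Its log2 difference was 0.011 (SE 0.040; limma adjusted p 0.950). clec-85, whose expression depends on the p38 kinase PMK-1, read 9.59 ± 0.13 (SD, n = 3) in N2 and 9.65 ± 0.092 (SD, n = 3) in the mutant, a difference of 0.062 (SE 0.091; limma adjusted p 0.845). For both genes the groups overlapped and the fitted difference was smaller than its standard error.

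clec-41 and clec-42, studied for defence against Bacillus thuringiensis, differed in how their arrays spread. clec-41 read 9.42 ± 0.18 (SD, n = 3) in N2 and 9.44 ± 0.26 (SD, n = 3) in the mutant. clec-42 read 7.93, 6.91 and 9.46 in N2 and 5.93, 6.97 and 6.69 in the mutant. That is the lowest fitted value of the family, −1.57 (SE 0.72; limma adjusted p 0.619), but mutant array 2 lay above N2 array 2, and the value was −0.97 without the arrays numbered 3.

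clec-67, induced by infection with Microbacterium nematophilum, read 9.63, 9.65 and 10.91 in N2 and 10.40, 10.47 and 10.29 in the mutant. All mutant arrays lay above N2 arrays 1 and 2 and below N2 array 3, and the difference was 0.32 (SE 0.38; limma adjusted p 0.810). Without the arrays numbered 3 it was 0.79 (SE 0.039; limma adjusted p 0.0420), one of 2 members called in a fit of 2 arrays against 2 that called 2.24% of all genes. A probe set annotated with clec-67 and clec-69 gave the same order of arrays, with 9.69, 9.98 and 11.22 in N2 and 10.50, 10.59 and 10.42 in the mutant.

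The arrays numbered 3 stood away from the others in several members. Of the 51 genes, 10 deviated on N2 array 3 by at least 1 on the log2 scale from the mean of the other N2 arrays, and 8 deviated as much on mutant array 3 from the other mutant arrays. A difference between the genotypes of at least 1 was found in 2 with all arrays and in 4 without the arrays numbered 3. Of these 4, clec-87, clec-88 and clec-91 were lower and clec-74 was higher, at 2.25. There clec-74 passed log2 4 only on the mutant arrays, so its difference is given with no test. The same counts over all genes are not given here, so whether the family stands out in them cannot be seen. The genes below were named after their values had been seen, apart from clec-87, clec-196, clec-266, clec-1 and clec-265, which are among the brightest, and clec-17 and clec-72, which are on the infection list.

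clec-87, clec-88, clec-91 and clec-196 were highest on mutant array 3. clec-87 (Entrez gene 172885) read 13.16, 12.77 and 12.10 in N2 and 10.9993, 10.81 and 14.49 in the mutant, so mutant array 3 lay above all N2 arrays and the other mutant arrays below all of them. clec-91 (Entrez gene 172736) read 10.80, 10.38 and 8.64 in N2 and 8.49, 8.31 and 12.49 in the mutant. clec-88 read 12.20, 11.87 and 11.02 in N2 and 10.49, 10.30 and 13.60 in the mutant. All 3 show one order of arrays, with mutant array 3 first, N2 arrays 1, 2 and 3 next and mutant arrays 1 and 2 last.

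The mean of the early embryo and germline markers had its maximum on the same array. Mutant array 3 exceeded the other mutant arrays by 1.63 on that mean, against 3.58 for clec-87, 4.09 for clec-91 and 3.21 for clec-88. A mean over 17 markers is not like a single gene. Picked after their values were seen, pos-1 read 8.96, 9.30 and 12.69 on the mutant arrays and cey-2 8.58, 8.61 and 12.12. mex-3 read 9.38, 9.18 and 9.48 there and glh-1 9.02, 9.09 and 9.37. The log2 of the summed signal of these markers ran from 11.98 to 12.96 in N2 and from 11.81 to 14.03 in the mutant. Of the 23 markers 6, mex-1, oma-1, pgl-3, egg-1, puf-3 and chs-1, were not expressed, and none stood at the floor on all arrays. The part of the embryo share in these genes was not tested. With all arrays the differences of clec-87, clec-88 and clec-91 were −0.58, −0.23 and −0.17, with standard errors from 1.01 to 1.35. Without the arrays numbered 3 they were −2.06, −1.64 and −2.18, with limma adjusted p from 0.0569 to 0.0631.

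clec-196 (Entrez gene 178506) read 12.45, 12.42 and 10.86 in N2 and 11.80, 11.84 and 13.07 in the mutant. The sign of its difference turned with the choice of arrays, from 0.33 (SE 0.60; limma adjusted p 0.881) with all 6 to −0.62 (SE 0.030; limma adjusted p 0.0420) without the arrays numbered 3. It was the other member called in that fit. Among the other brightest genes clec-266, clec-1 and clec-265 had differences of 0.30, −0.064 and 0.31, with limma adjusted p from 0.694 to 0.864. With single arrays left out clec-266 ran from 0.14 (without mutant array 3) to 0.41 and clec-265 from 0.16 (without N2 array 3) to 0.43. Without both arrays numbered 3 clec-266 was at 0.025.

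A different set was highest on N2 array 3. clec-174 read 10.09, 10.24 and 13.16 in N2 and 10.59, 11.14 and 10.19 in the mutant. clec-52 read 8.52, 9.01 and 10.76 in N2 and 9.63, 9.38 and 9.67 in the mutant. clec-72 read 10.37, 10.10 and 11.65 in N2 and 10.37, 10.32 and 10.02 in the mutant, and clec-17 stood 1.43 above the other N2 arrays on N2 array 3. In each of these genes all mutant arrays lay below N2 array 3, and the groups overlapped.

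On N2 array 3 the mean of 13 pharynx markers lay 0.47 above the other N2 arrays, that of 16 muscle markers 0.31 and that of 16 intestine markers 0.12, while 12 hypodermis markers deviated by −0.47. The log2 of the summed pharynx signal ran from 14.67 to 15.37 in N2 and from 14.72 to 14.92 in the mutant. For the intestine it ran from 16.90 to 17.11 in N2 and from 16.65 to 16.86 in the mutant. None of these markers stood at the floor on all arrays. The part of these tissues in the lectin values was not tested.

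**Figure D3:**
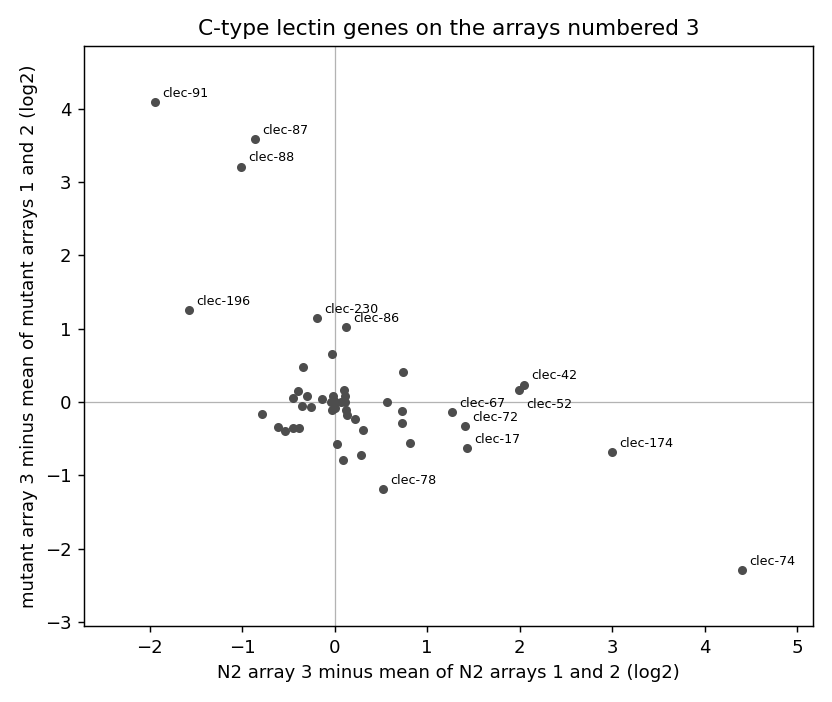
For each of the 51 expressed C-type lectin genes, the log2 deviation of N2 array 3 from the mean of N2 arrays 1 and 2 (horizontal) against that of mutant array 3 from the mean of mutant arrays 1 and 2 (vertical); genes off by at least 1 on either axis are named. clec-91, clec-87, clec-88 and clec-196 lie at the upper left, clec-74 and clec-174 at the right, and most genes near the origin.

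Many C-type lectin genes lie next to one another in the genome. In the order of protein-coding genes and pseudogenes of the RefSeq assembly WBcel235, 45 runs of 2 to 13 adjacent clec genes held 116 of the 220 members. At least 1 member was expressed in 12 runs, and in 3 of these every gene was. In 30 runs none of the members was expressed, and 3 runs hold no gene with a probe set of its own. The runs expressed throughout were clec-62 to clec-66, clec-49 with clec-50, and clec-186 with clec-187.

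Neighbours in a run had differences of either sign. In the run of 5 from clec-62 to clec-66, the differences were 0.048, −0.31, 0, 0.16 and 0.10, in gene order. Those of clec-62 and clec-65 were −0.22 and −0.031 with array weights and −0.14 and −0.0072 without the arrays numbered 3, so their sign is not settled. clec-50, beside clec-49, read 11.04 ± 0.078 (SD, n = 3) in N2 and 11.06 ± 0.046 (SD, n = 3) in the mutant. In another run, clec-67, clec-71 and clec-174 were all highest on N2 array 3, where clec-71 read 6.29 against at most 5.81 on any other array. The set of clec-174 has an _x suffix, so signal from related genes cannot be told apart in it. No difference between neighbours was tested.

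Of the expressed genes, 9 had more than 1 probe set of their own, and in 6 of them more than 1 set passed the threshold. In those 6 the sets had the same sign. clec-87 read −0.58 and −0.45, clec-88 −0.23 and −0.26, and clec-72 −0.47 and −0.42. clec-65 read 0.16 and 0.27, clec-57 −0.11 and −0.16, and clec-150 −0.018 and −0.17. In clec-10, clec-78 and clec-135 only 1 set passed, so their place among the expressed genes rests on that set. The other sets of clec-78 read between 2.04 and 2.67, and that of clec-135 stood at the floor on every array. The second set of clec-10, under the threshold, read 3.30, 3.30 and 3.79 in N2 and 2.55, 2.82 and 2.66 in the mutant. There too all mutant arrays lay lower, but values so near the floor of 2.04 carry little weight. The results given for clec-10 rest on its brighter set alone.

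A further 22 probe sets are annotated with a clec gene and another gene, and so lie outside the rule. They are the only ones here for 15 of the 264 clec genes of RefSeq, and 29 have no probe set here. Of the 22, 5 passed the expression threshold, and 1 of them was called. This probe set, annotated with clec-209 and F56A4.2, read an identical 4.33 on all 3 N2 arrays and 11.08, 11.55 and 10.84 on the mutant arrays. It was named because of this value.

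Its means were 4.33 ± 0 (SD, n = 3) in N2 and 11.16 ± 0.36 (SD, n = 3) in the mutant, a log2 difference of 6.82 (SE 0.19; limma adjusted p 0.0037), or 113-fold. The N2 value is a constant of the deposited table, so the fold depends on it. Of the 12060 probe sets tested it had the lowest p, where 16, or 0.133%, were called, and of those 16 it was 1 of 2 that rose. The adjusted p ran from 0.000715 to 0.430 over the alternatives, passing 0.05 in all but the fit with the replicate number as a block (0.430) and that without N2 array 1 (0.117), at log2 differences from 6.63 to 6.98. The probe set does not tell clec-209 from F56A4.2, which have the same length in RefSeq. Of the probe sets within 5 genes of either, 6 are annotated with a neighbour of both, so the surroundings of the genes are alike too. Copy number was not measured, and more copies in the mutant strain cannot be told apart from more RNA per copy.

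**Figure D4:**
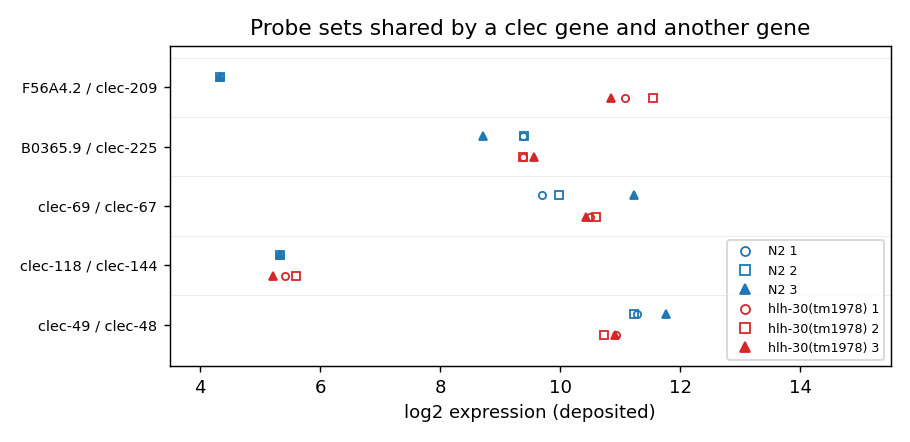
Deposited log2 expression on each array for the 5 expressed probe sets that are annotated with a clec gene and another gene, with N2 in blue, hlh-30(tm1978) in red and the arrays numbered 3 as filled triangles. The clec-209 set lies at 4.33 on all N2 arrays and between 10.84 and 11.55 on the mutant arrays, and the set of clec-48 and clec-49 is the only one with all mutant arrays lower.

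Other lectins and defence genes were set beside the family as counts. All 12 galectins, lectins of another fold that bind galactosides, were expressed. None was called, 9 were below 0 and the median was −0.20. Of the 12, 3 had all mutant arrays lower and 2 all higher, where 9.87% and 3.76% of all genes did. Of 34 lysozymes, saposin-like proteins and antimicrobial peptides expressed, none was called, 17 were below 0, 16 above and 1 at 0, and the median was −0.0095. Among the 34, 7 had all mutant arrays lower and 1 all higher, beside 9.87% and 3.76% of all genes. The lowest adjusted p belonged to spp-12, at a difference of −0.93 (SE 0.21; limma adjusted p 0.251). The lysozyme gene lys-7 was not covered by the naming rules. It read 11.46 ± 0.43 (SD, n = 3) in N2 and 10.58 ± 0.097 (SD, n = 3) in the mutant. The difference of lys-7 was −0.87 (SE 0.23; limma adjusted p 0.338).

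Of 17 genes of the p38 pathway and the infection response that were expressed, hlh-30 included, none was called and the median was 0.041. The lowest adjusted p there belonged to irg-5, an infection response gene under p38 control, which read 7.94 ± 0.21 (SD, n = 3) in N2 and 9.14 ± 0.14 (SD, n = 3) in the mutant. Its difference was 1.21 (SE 0.14; limma adjusted p 0.0751). irg-4, of the same class, differed by 0.70 (SE 0.093; limma adjusted p 0.0971). For both, all 3 mutant arrays lay above all N2 arrays, and neither passed the threshold. Of the 17, 2 had all mutant arrays higher and 2 all lower, beside 3.76% and 9.87% of all genes. The 2 lower were hlh-30 and pmk-2. The difference of pmk-2, a p38 kinase gene, was −0.25 (SE 0.048; limma adjusted p 0.198).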

How the data were processed

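The authors deposited log2 expression values, 1 for each of 22548 probe sets other than 77 controls. Per the submitters' processing notes GCRMA and limma were used, with versions not given in the sources used here. Probe sets were named through the supplied platform annotation. The analysis here used limma 3.58.1 in R 4.3.3 (lmFit, eBayes, mutant minus wild type, no covariate) on the 12060 probe sets at log2 4 or more on at least 3 arrays, with Benjamini-Hochberg adjustment over all of them and a threshold of 0.05. The fit was also run on simulated data with independent noise for each probe set, without the shared deviations of the arrays numbered 3. No conclusion here rests on that run. The members, the lists and the alternatives were chosen with earlier results of these data known. Genes were named if called, if among the 10 highest or lowest with arrays apart, if among the 6 brightest, if linked to infection and expressed, if among the 3 nearest the threshold on either side, if in the tandem run of a separated gene, or if probe sets disagreed. None disagreed. Others are said to be named after their values were seen. Protein and promoter sequences were not used here. Precision is limited by there being 3 arrays per genotype.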

Additional observations from a re-analysis of the deposited data

How the results depend on the processing

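The number of expressed genes was 34 to 53 over the alternative thresholds, scalings and probe sets, and 26 when only genes with 6 different values were kept, a choice made after seeing the data. No member was called in any setting except with array quality weights (1) and without both arrays numbered 3 (2), and 5 had an unadjusted p under 0.05 with all arrays. That last count was 17 with weights, 13 without both arrays numbered 3 and 3 after median centring. It was 2 with only plainly named probe sets (without an _s or _x suffix), and 1 to 6 with each array left out in turn. Genes below 0 numbered 38 with no filter, 13 with plainly named probe sets and 15 with 6 different values. Genes with all mutant arrays higher numbered 4 after quantile normalization, 1 with plainly named probe sets, 1 with 6 different values, 13 without both arrays numbered 3 and 2 to 5 with each array left out. Those with all mutant arrays lower numbered 2 with plainly named probe sets, 11 without both arrays and 5 to 9 with each array left out. Without both arrays numbered 3, the 13 higher and 11 lower are 25.5% and 21.6% of the family, beside 18.1% and 34.8% of all genes, and the 13 with an unadjusted p under 0.05 are 25.5% beside 26.1%. The genes in that fit were those that passed the threshold with all 6 arrays. clec-74, counted in both groups of 13, passed log2 4 there only on the mutant arrays, where it is high. The share of all genes at an unadjusted p under 0.05 with weights is not given here, so the 17 cannot be set against it. The weighted fit called 6.46% of all genes, beside 0.143% in the fit without weights. Fewer arrays or fewer probe sets enter these counts by construction. Whether the replicate numbers pair the arrays is not known. Same-numbered arrays deviated from their group means with correlations of −0.41, −0.42 and −0.52. Deviations within a group of 3 are tied to one another, so these values cannot show whether same-numbered arrays were handled together. With the replicate block no member was called, 2 had an unadjusted p under 0.05, and the probe set of clec-209 and F56A4.2 had a limma adjusted p of 0.430.

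Signs turned for 13 of the 51 expressed genes with array weights and for 14 without both arrays numbered 3. With weights the log2 values were −0.50 for clec-196, −0.063 for clec-4, 0.25 for clec-17, −0.059 for clec-50, −0.22 for clec-62, −0.031 for clec-65, 0.070 for clec-71, 0.021 for clec-72, 0.0031 for clec-150 and 0.31 for clec-174. Without both arrays numbered 3 they were −0.62, −0.087, 0.43, −0.044, −0.14, −0.0072, 0.17, 0.11, 0.012 and 0.71 in the same order. The others were clec-78 (0.50 with weights and 0.54 without both arrays), clec-147, clec-178 and, without both arrays only, clec-230 (−0.18). clec-150 was 0.044 after quantile normalization, and clec-74 was −0.11 with values under log2 4 set to 4. With each array left out in turn, among the genes described one by one, clec-1 ran from −0.15 to 0.0003, clec-87 from −1.77 to 0.068, clec-196 from −0.20 to 0.60, clec-4 from −0.10 to 0.10, clec-17 from −0.54 to 0.22, clec-41 from −0.12 to 0.15, clec-50 from −0.030 to 0.041, clec-52 from −0.33 to 0.79, clec-57 from −0.32 to 0.073, clec-60 from −0.0004 to 0.017, clec-62 from −0.085 to 0.17, clec-71 from −0.35 to 0.079, clec-74 from −0.71 to 1.49, clec-85 from −0.013 to 0.11, clec-88 from −1.30 to 0.35, clec-91 from −1.54 to 0.55, clec-150 from −0.038 to 0.012 and clec-174 from −1.06 to 0.48. The cause was not tested.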

Other observations

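The genes on either side of clec-209 and of F56A4.2 in RefSeq order were looked up after the clec-209 value had been seen. Within 5 genes of either, 15 further probe sets were found, and 9 of them stood at the floor on all 6 arrays. For 3 all mutant arrays lay above all N2 arrays, and for 0 all lay below. Over all genes expressed these shares were 3.76% and 9.87%. Only 2 of the 15 sets passed the expression threshold, so the shares are not a like background. The set annotated with irld-53 and irld-35, the genes directly beside clec-209 and F56A4.2, read 2.17, 3.35 and 3.59 in N2 and 5.30, 5.76 and 5.08 in the mutant. It passed the expression threshold only through the mutant arrays, where it is high, so its difference is given with no test. The set annotated with F56A4.3 and gst-10, the latter a glutathione S-transferase gene, read 11.73, 11.82 and 12.16 in N2 and 13.01, 12.97 and 12.87 in the mutant (limma adjusted p 0.0816). The set annotated with F56A4.4 and Y45G12C.3 read 2.47, 2.51 and 2.51 in N2 and 3.34, 3.68 and 3.71 in the mutant, all under the expression threshold. The cause of these differences was not tested.

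Of the other shared probe sets, that of clec-225 and B0365.9 read 9.17 ± 0.39 (SD, n = 3) in N2 and 9.44 ± 0.10 (SD, n = 3) in the mutant, and that of clec-118 and clec-144 an identical 5.34 on all N2 arrays and 5.41, 5.60 and 5.21 in the mutant. The 17 remaining ones were not expressed.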
